A study of Mus musculus with 5 samples.

Results

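The genes described here are 8 calcium sensors, 6 of them hippocalcin-type sensors (Hpca, Hpcal1, Hpcal4, Vsnl1, Ncald and Ncs1) and 2 of them calmodulin genes (Calm2 and Calm3). They were found by exact gene name among the 15093 genes of the deposited table, and 8 of 8 were present. They were chosen by name and function, with the CPM values and fold changes of the comparison between fear conditioned and control libraries already known, so their differences between groups are given as a description and were not tested as findings.

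All libraries came from adult Drd2-TRAP mice, in which a Drd2-Cre transgene switches on an EGFP-tagged ribosomal protein L10a (the Rosa26 fs-TRAP allele), so that messenger RNA on the tagged ribosomes can be pulled down (translating ribosome affinity purification, TRAP). The pull-down therefore covers each cell in which that transgene is or was active. There were 3 libraries of fear conditioned mice (replicates 2, 3 and 4), trained with paired tone and foot shock, and 2 of control mice (replicates 6 and 7), and each library held bilateral micropunches of the central amygdala (CeA) from 3 pooled animals. The labels call the controls Home Cage animals, while the study's text describes mice that met the tone without shock, and collection is given as 2 h after extinction in the labels and 2 h after conditioning in the text. Nothing else in the labels separates the groups, and spread between pools includes both biological and technical differences.

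Neuronal calcium sensors and calmodulin are small EF-hand proteins that bind calcium when it enters the cell and then change shape. Calmodulin is present in all cells and hands the signal to kinases, the phosphatase calcineurin, adenylyl cyclases and channels, and the calmodulin genes all encode the same protein. The hippocalcin-type sensors are enriched in neurons, and most of them carry a myristoyl group that is exposed by calcium and moves the protein to membranes. Hippocalcin (Hpca) is abundant in hippocampus and striatum and takes part in the slow afterhyperpolarization and in AMPA receptor endocytosis during long-term depression, while NCS-1 (Ncs1) binds the dopamine D2 receptor and limits its desensitization.

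Values are those deposited, taken here as read counts normalized to 1000000 per library by an effective library size (CPM). This unit was inferred from the values. The libraries held between 19605318 and 27937520 reads on genes, recovered from the values, so that 3 reads corresponded to at most 0.158 CPM, a limit that covers counting error only. The lowest value among the 8 genes was 45.3 CPM (912 reads), far above that limit. Drd2 itself (ENSMUSG00000032259) had 326, 375 and 555 CPM in fear conditioned pools against 128 and 262 CPM in control pools. Among marker genes of other cells, the summed level of 7 astrocyte genes lay between 845 and 1032 CPM after fear conditioning against 2158 and 2920 CPM in controls, that of 7 oligodendrocyte genes between 1251 and 2650.1 CPM against 2726 and 5316 CPM, that of 7 choroid plexus genes between 58.1 and 110 CPM against 1011 and 1415 CPM, and that of 7 pallial glutamatergic neuron genes between 54.0 and 202 CPM against 278 and 366 CPM. The sum of 7 central amygdala neuron genes was also lower, with 296, 169 and 157 CPM after fear conditioning against 306 and 546 CPM in controls, although fear conditioned replicate 2 and control replicate 6 were nearly level. The 13 striatal projection neuron genes went the other way, with sums between 23743 and 26664 CPM against 8984 and 15376 CPM. Sums of 6 endothelial genes lay between 10.2 and 35.99 CPM against 55.6 and 203 CPM, and those of 7 microglial genes overlapped, between 52.3 and 95.7 CPM against 103 and 83.1 CPM. In pooled pull-downs of this kind, the number of cells of a type, the RNA per cell and the RNA carried over from untagged cells cannot be told apart.

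The 8 genes did not move together. Hpca and Calm2 were higher in each fear conditioned library than in both controls. Hpcal1, Ncald and Vsnl1 were lower in each fear conditioned library than in both controls, and Hpcal4, Ncs1 and Calm3 overlapped between the groups. The groups thus did not overlap for 5 of 8 genes, 2 higher and 3 lower, beside 36.4% of all 13560 genes tested (20.2% higher and 16.1% lower). The log2 fold change, fear conditioned minus control on the log2(CPM + 1) scale, was above 0 for 3 of the 8 (54.0% of all genes tested) and had a median of -0.34, beside a median of 0.08 over all genes tested.

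**Figure D1:**
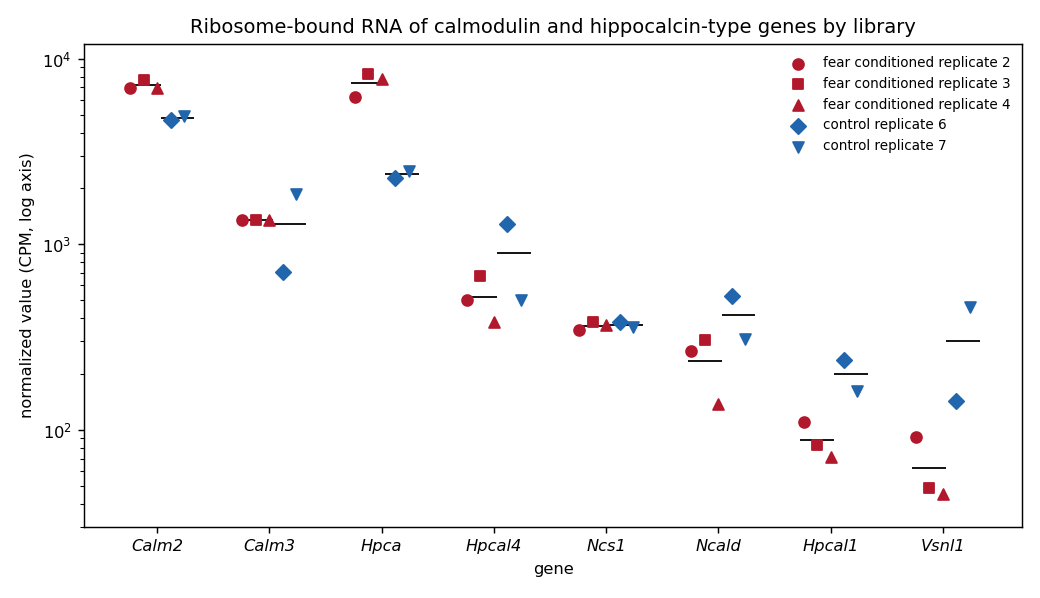
Normalized value (CPM, log axis) of each gene in each of the 5 libraries, with red symbols for fear conditioned and blue symbols for control libraries and a black line at each group mean. The red symbols of Hpca lie between 6179 and 8228 CPM, above the blue ones at 2289 and 2466 CPM, while all symbols of Ncs1 lie between 346 and 380.1 CPM.

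Groups were compared with limma on log2(CPM + 1) across the 13560 genes with a mean of at least 1 CPM, two-sided and with Benjamini-Hochberg adjustment. None of the 8 genes and 0.0% of all genes passed an adjusted p of 0.05 with an absolute log2 fold change over 0.5, and the smallest adjusted p over all genes was 0.197. The study, with its own software, reported a list of differentially expressed genes at these cutoffs. At an unadjusted p under 0.05, limma gave 2280 genes (16.8%), and 3 of the 8 were among them, Hpca on the higher side (9.49% of all genes) and Hpcal1 and Vsnl1 on the lower side (7.32%). edgeR's quasi-likelihood test on the recovered reads called 0 of 15093 genes (2433 at an unadjusted p under 0.05), whereas DESeq2 on the same reads called 1128 (7.47%), and 3 of the 8 were among them, Hpca on the higher side (3.68% of all genes) and Hpcal1 and Vsnl1 on the lower side (3.79%). Because these genes were chosen with this comparison known, nothing is read from these counts. With the single remaining control library taken to vary like the others, the unadjusted p in limma was under 0.05 for 6 of the 8 genes without control replicate 7, beside 41.8% of all genes, and for 3 of the 8 without control replicate 6, beside 65.4% of all genes.

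Hpca (ENSMUSG00000028785), which encodes hippocalcin, had 6179, 8228 and 7750.2 CPM across the fear conditioned pools against 2289 and 2466 CPM in control pools. The lowest fear conditioned library stood well clear of the higher control library, and the 2 controls were within 1.08-fold of each other. The means were 7386 ± 1072 CPM (SD, n = 3) and 2377 ± 125 CPM (SD, n = 2), a ratio of 3.11, and the log2 fold change was 1.63 (standard error 0.32). Counted from the highest CPM of a library, Hpca ranked 4, 2 and 2 after fear conditioning against 11 and 16 in controls. With each library left out in turn its log2 fold change stayed between 1.54 and 1.75. After quantile normalization, which ties the values of the most abundant genes across libraries, it was 1.21. Of the 13 striatal projection neuron genes, whose sums are given above, 9 were likewise higher in each fear conditioned library than in both controls, beside 20.2% of all genes tested. None of the 13 was at 0 in any library. Their part in the Hpca difference was not tested.

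Over the 5 libraries, the genes whose pattern was most like that of Hpca, among 9275 others with a mean of at least 10 CPM, were Abcb9, Dffa, Tiam2, Scarb1 and Tmem198. The measure was the root mean square difference of log2(CPM + 1) after centring each gene on its own mean, and it was 0.10 for Abcb9 and 0.15 for Tmem198. Abcb9 had 50.6, 63.3 and 63.4 CPM after fear conditioning against 18.7 and 22.8 CPM in controls. None of the other 7 calcium sensors described here was among these 5 genes.

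Upstream sequence was compared for the hippocalcin-type gene that was higher, the most clearly lower ones and the one that stayed level. RefSeq start sites (GRCm38.p6) were held for 6 of the 8 genes, in 9 windows of 250 bases before the start, and Ncald and Calm2 were not among them. The windows are printed 5′ to 3′ on the gene's strand, with each GC box (GGGCGG on either strand, the element bound by Sp1) in capitals. For Hpca and Vsnl1, which have 3 and 2 windows, the window richest in G and C is shown.
Hpca (chr4:129121304-129121553, minus strand): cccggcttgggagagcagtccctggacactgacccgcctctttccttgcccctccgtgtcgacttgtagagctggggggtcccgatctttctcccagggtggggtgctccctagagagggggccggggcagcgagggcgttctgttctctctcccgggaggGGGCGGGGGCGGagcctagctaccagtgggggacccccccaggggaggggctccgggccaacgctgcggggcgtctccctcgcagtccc
Hpcal1 (chr12:17690559-17690808, plus strand): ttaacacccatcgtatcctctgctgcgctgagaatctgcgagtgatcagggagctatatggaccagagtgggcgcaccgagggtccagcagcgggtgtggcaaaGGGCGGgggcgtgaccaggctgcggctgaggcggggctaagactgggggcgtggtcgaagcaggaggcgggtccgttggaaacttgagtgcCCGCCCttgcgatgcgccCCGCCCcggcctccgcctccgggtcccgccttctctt
Vsnl1 (chr12:11436579-11436828, minus strand): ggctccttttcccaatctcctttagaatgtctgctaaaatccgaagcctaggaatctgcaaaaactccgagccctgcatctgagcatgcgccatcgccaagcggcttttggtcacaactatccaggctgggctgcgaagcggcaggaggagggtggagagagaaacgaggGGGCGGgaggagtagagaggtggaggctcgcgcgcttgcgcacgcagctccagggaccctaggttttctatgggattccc
Ncs1 (chr2:31245673-31245922, plus strand): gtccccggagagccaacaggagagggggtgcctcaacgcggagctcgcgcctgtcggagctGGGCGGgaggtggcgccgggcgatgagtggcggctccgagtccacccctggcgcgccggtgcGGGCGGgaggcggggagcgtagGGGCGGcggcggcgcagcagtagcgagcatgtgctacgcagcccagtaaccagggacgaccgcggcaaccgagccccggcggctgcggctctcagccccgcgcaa

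These 4 windows hold 2, 3, 1 and 3 GC boxes, and their share of G and C is 71.2%, 66.8%, 58.0% and 75.6%, beside a median of 52.4% over all 32851 windows. GC boxes were found in 6 of the 9 windows of the 8 genes and in 32.7% of all windows. The TATA box (TATAAA, either strand) was found in 0 of the 9 windows and in 12.4% of all windows, and the cAMP response element (TGACGTCA) in 0 of the 9 and in 1.55% of all. The core of that element (TGACG, either strand, also contained in the full element) was found in 1 window, that of Calm3, and in 17.8% of all, and the CCAAT box (CCAAT, either strand) in 3 windows, those of Hpcal4 and Vsnl1, and in 33.8% of all. The remaining windows of Hpca had a G and C share of 58.8% with 1 GC box and of 51.2% with 0, and the remaining window of Vsnl1 had 41.6% with 0, so that both genes also had a window below the median of all windows. A match of letters is a description of the window and not a binding site.

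Vsnl1 (ENSMUSG00000054459) encodes visinin-like protein 1, a sensor that is abundant in cortical and hippocampal neurons and acts on membrane trafficking of receptors. It had 92.0, 48.5 and 45.3 CPM across the fear conditioned pools against 143 and 458 CPM in control pools. All fear conditioned libraries lay below both controls, but the controls differed 3.20-fold from each other. The means were 61.9 ± 26.1 CPM (SD, n = 3) and 301 ± 223 CPM (SD, n = 2), a level 4.86-fold higher in controls, with a log2 fold change of -2.11 (standard error 0.56). Without control replicate 7, which carried the highest value, the log2 fold change came to -1.27, and without control replicate 6 to -2.94. Among the 8 genes this was the widest range over libraries, 10.1-fold from the lowest to the highest.

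Hpcal1 (ENSMUSG00000071379), encoding the close hippocalcin relative also called VILIP-3, had 111, 83.1 and 71.2 CPM across the fear conditioned pools against 237 and 161 CPM in control pools. Both controls lay above the highest fear conditioned library. The means of 88.3 ± 20.2 CPM (SD, n = 3) and 199 ± 53.6 CPM (SD, n = 2) made it 2.26-fold higher in controls, with a log2 fold change of -1.16 (standard error 0.30) that stayed between -1.44 and -0.89 with each library left out in turn. Ncald (ENSMUSG00000051359), encoding neurocalcin delta, had 265, 305 and 138 CPM after fear conditioning against 523 and 307 CPM in controls. The groups did not overlap, but fear conditioned replicate 3 and control replicate 7 were nearly level. Its log2 fold change was -0.84 (standard error 0.41), and it was -0.46 without control replicate 6.

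Hpcal4 (ENSMUSG00000046093), encoding the brain-enriched hippocalcin-like protein 4, had 499, 678 and 382 CPM after fear conditioning against 1285 and 502 CPM in controls. Only control replicate 6 stood above the fear conditioned libraries. The log2 fold change of -0.67 (standard error 0.45) accordingly rested on that library and was 0.01 without it, against -1.34 without control replicate 7. Over the 5 libraries the pattern of Hpcal4 was most like that of Ncald among the 8 genes, with a root mean square difference of 0.27 on the log2 scale.

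For the lower genes Vsnl1, Hpcal1 and Ncald, the summed astrocyte, oligodendrocyte, choroid plexus, endothelial, pallial glutamatergic neuron and central amygdala neuron markers given above were also lower in each fear conditioned library than in both controls. By single genes, 5 of 7 astrocyte markers, 4 of 7 oligodendrocyte markers, 3 of 6 choroid plexus markers tested, 2 of 6 endothelial markers, 3 of 7 pallial markers and 4 of 7 central amygdala neuron markers were lower without overlap between the groups. Over all genes tested, 16.1% were lower without overlap and 20.2% were higher without overlap. In the other direction, 1 endothelial marker was higher in each fear conditioned library than in both controls. The log2 fold change was above 0 for 1 astrocyte, 0 oligodendrocyte, 1 choroid plexus, 1 endothelial, 2 pallial and 2 central amygdala neuron markers. The median log2 fold change of the central amygdala neuron markers was -1.01. In the lists as a whole, the choroid plexus markers Kcnj13, Folr1, Aqp1 and Otx2 were at 0 in at least 1 library, and the central amygdala marker Tac2 was at 0 in control replicate 7, while no astrocyte, oligodendrocyte, endothelial or pallial marker was at 0. Their part in the differences of the 3 genes was not tested.

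Ncs1 (ENSMUSG00000062661), encoding neuronal calcium sensor 1, was the most even of the 8 genes. It had 346, 380.1 and 366 CPM across the fear conditioned pools against 379 and 358 CPM in control pools, so the values of both groups interleaved within a 1.10-fold range. The means were 364 ± 16.9 CPM (SD, n = 3) and 369 ± 14.5 CPM (SD, n = 2), with a log2 fold change of -0.02 (standard error 0.19). The ratio of Ncs1 to Drd2, its receptor partner, was 1.06, 1.01 and 0.660 after fear conditioning against 2.95 and 1.37 in controls, on the CPM scale. It was lower in each fear conditioned library than in both controls, and this difference came with the values of Drd2 and not with those of Ncs1.

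**Figure D2:**
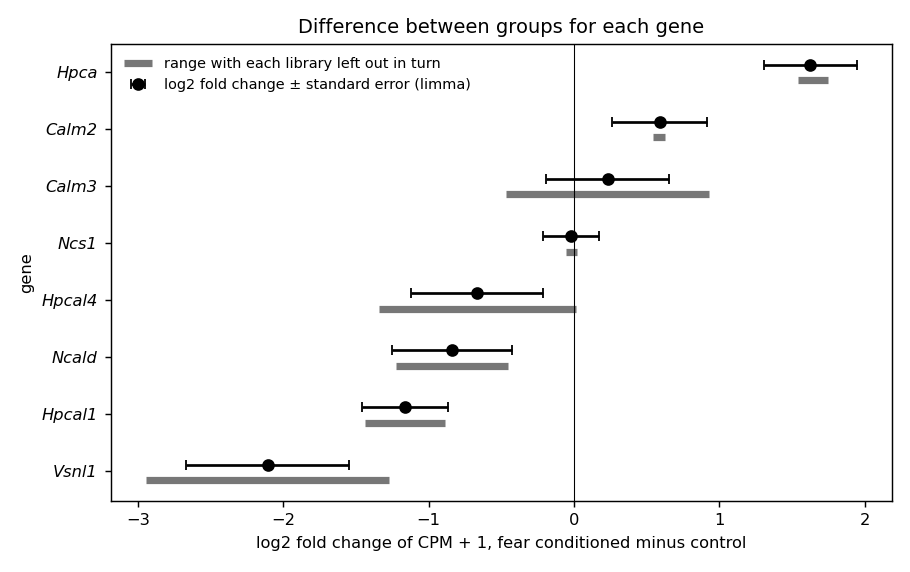
Log2 fold change of CPM + 1 (fear conditioned minus control) for each gene, as a black point with its standard error from limma and a grey bar for the range when each of the 5 libraries is left out in turn. Hpca stays between 1.54 and 1.75, whereas the bars of Hpcal4 (-1.34 to 0.01), Calm3 (-0.47 to 0.93) and Ncs1 (-0.06 to 0.02) cross 0.

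Calm2 (ENSMUSG00000036438) had 6941, 7678 and 6957 CPM across the fear conditioned pools against 4659 and 4898 CPM in control pools. Each fear conditioned library was above both controls, and the replicates of each group were within 1.11-fold of each other. The means were 7192 ± 421 CPM (SD, n = 3) and 4779 ± 169 CPM (SD, n = 2), a ratio of 1.51 and a log2 fold change of 0.59 (standard error 0.32). After quantile normalization, which ties the highest values across libraries, its log2 fold change was 0.04. By CPM, Calm2 was at rank 2, 3 and 3 among all genes in the fear conditioned pools, and at rank 3 in each control pool.

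Calm3 (ENSMUSG00000019370) had 1359, 1354 and 1350.1 CPM across the fear conditioned pools, within 1.01-fold of each other, against 711 and 1873 CPM in control pools. The controls lay on either side of the fear conditioned libraries. The log2 fold change was 0.23 (standard error 0.42), 0.93 without control replicate 7 and -0.47 without control replicate 6. The calmodulin genes encode the same protein, and how reads that match several genes were treated is not given. Whether reads from one gene were counted on another was not tested, and their separate values are uncertain to that extent.

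The ratio of Calm2 to Calm3 in CPM was 5.11, 5.67 and 5.15 across the fear conditioned pools against 6.55 and 2.62 in control pools. The controls again lay on either side of the fear conditioned libraries.

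Per kilobase of deposited gene length, the scale on which levels of different genes are compared here, the hippocalcin-type genes summed to 1998, 2561 and 2349 CPM per kb after fear conditioning against 1212 and 1211 CPM per kb in controls. Hpca made up 84.6%, 87.9% and 90.3% of this sum after fear conditioning and 51.7% and 55.7% in controls. The share of Ncs1 was 3.37 ± 0.272% (SD, n = 3) against 6.44 ± 0.251% (SD, n = 2), although its own level was even, because the sum was larger. Vsnl1 held 1.46 ± 0.806% after fear conditioning, and in controls 6.13% in replicate 6 and 19.6% in replicate 7.

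**Figure D3:**
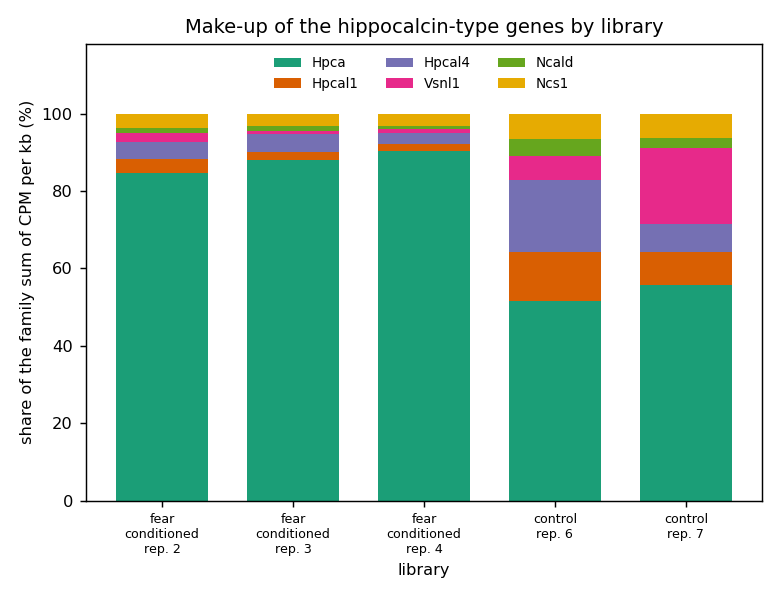
Share (%) of each gene in the summed CPM per kb of the hippocalcin-type genes, with 1 bar per library. The Hpca part takes up 84.6% to 90.3% of the fear conditioned bars and 51.7% and 55.7% of the control bars, and the Vsnl1 part is largest in control replicate 7, at 19.6%.

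On the same scale per kilobase, the order of levels in the fear conditioned libraries was Calm2 (4002 CPM per kb), Hpca (2021), Calm3 (402), Hpcal4 (90.9), Ncs1 (77.1), Hpcal1 (56.7), Vsnl1 (32.1) and Ncald (24.4). The first 3 of these did not overlap with their neighbours, whereas Hpcal4 and Ncs1, Hpcal1 and Vsnl1, and Vsnl1 and Ncald overlapped in their libraries. Hpcal1 (up to 71.0) also overlapped with Hpcal4 (down to 66.8), although not with Ncs1 between them. In the control libraries Calm2 (2659 CPM per kb) and Hpca (651) again came first, without overlap. Below Calm3 (384), the control levels of Hpcal4 (156), Vsnl1 (156) and Hpcal1 (128) overlapped with the next gene above, and Ncs1 (78.1) and Ncald (42.9) each followed without overlap with the gene just above, although the values of Ncs1 (75.9 and 80.2) lay within the range of Vsnl1 (74.3 to 238). The ratio of Hpca to Calm2 in CPM was 0.890, 1.07 and 1.11 after fear conditioning against 0.491 and 0.503 in controls. The ratio of Hpca to Vsnl1 ranged from 67.2 to 171 after fear conditioning and was 15.97 and 5.38 in controls.

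The genes around these sensors were taken from lists of their relatives, of calcium buffers, and of proteins that bind them, depend on them or act close to them. Across the 5 lists 0 genes passed the adjusted cutoffs in limma. The counts per list at an unadjusted p under 0.05 stand beside 9.49% of all genes tested on the higher side and 7.32% on the lower side. Of 11 other EF-hand sensors tested, 2 had an unadjusted p under 0.05 on the higher side and 2 on the lower side, and the list's median log2 fold change was 0.05. Kcnip2, encoding a subunit of A-type potassium channels, had 385, 474 and 465 CPM after fear conditioning against 261 and 282 CPM in controls (log2 fold change 0.69, standard error 0.21). Caln1, encoding calneuron 1, had 280.4, 425 and 427 CPM against 278 and 191 CPM (0.68, standard error 0.29). Cabp1, encoding caldendrin, a calmodulin relative that regulates calcium channels, had 104, 93.7 and 76.7 CPM against 45.5 and 13.6 CPM (1.81, standard error 0.51). Calml4, a calmodulin-like gene, had 0, 0.167 and 0 CPM after fear conditioning against 6.95 and 8.33 CPM in controls, and its fear conditioned libraries held 4 reads or fewer.

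Among 15 calcium buffers and S100 genes, 1 had an unadjusted p under 0.05 on the higher side and 0 on the lower side, with a median of -0.07. Calb1, encoding calbindin, had the highest CPM, with 1317, 1436 and 1236 CPM after fear conditioning against 1284 and 671 CPM in controls, and Sdf4, a calcium-binding protein of the Golgi, followed with 281, 245 and 279 CPM against 256 and 137 CPM. Both overlapped between the groups. S100a10, the partner of annexin A2, had 72.5, 49.6 and 105 CPM against 32.3 and 26.0 CPM (log2 fold change 1.29, standard error 0.38). Calb2, encoding calretinin, had 9.62, 11.3 and 4.37 CPM against 55.3 and 9.76 CPM, so that its log2 fold change of -1.47 (standard error 0.83) rested on control replicate 6.

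A list of 11 genes was drawn up for proteins that store or restrain calmodulin, and it also held relatives of these and inhibitors of CaM kinase II. Whether each of the proteins binds calmodulin was not tested. The list had 2 genes at an unadjusted p under 0.05 in limma on the higher side and 3 on the lower side, with a median of -0.40. Its 2 genes of highest mean CPM over all libraries were on the higher side, but that ranking favours genes that are higher in the fear conditioned libraries. By control mean, Pcp4l1 (570 CPM) stood below genes of the list on both sides. Nrgn, encoding neurogranin, which holds calmodulin at low calcium, had 3543, 3518 and 4057 CPM after fear conditioning against 1491 and 2759 CPM in controls (log2 fold change 0.87, standard error 0.35), and Pcp4l1 had 1258, 1507 and 1453 CPM against 399 and 741 CPM (1.36, standard error 0.32). On the lower side, Marcksl1, a membrane protein that calmodulin releases, had 34.8, 24.8 and 17.7 CPM against 63.5 and 176 CPM (-2.05, standard error 0.52), and Camk2n2, an inhibitor of CaM kinase II, had 16.8, 8.66 and 11.1 CPM against 34.4 and 58.4 CPM (-1.85, standard error 0.47).

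Of 31 calmodulin-dependent enzymes and pumps, 3 were at an unadjusted p under 0.05 on the higher side and 6 on the lower side, with a median of 0.02. The calcineurin subunits Ppp3ca and Ppp3r1 had the highest CPM. Ppp3ca had 1872, 3499 and 3218 CPM after fear conditioning against 2010.4 and 3538 CPM in controls, which overlapped, and Ppp3r1 had 1011, 1570 and 1555 CPM against 976 and 855 CPM. Atp2b4, a plasma membrane calcium pump, had 43.9, 42.6 and 35.8 CPM against 156 and 148 CPM (log2 fold change -1.88, standard error 0.24), and Mylk, encoding myosin light chain kinase, had 1.61, 1.92 and 2.58 CPM against 4.78 and 13.3 CPM (-1.60, standard error 0.63).

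Of 13 binding partners of these sensors, 4 were at an unadjusted p under 0.05 on the higher side, among them Drd2, and 1 on the lower side, with a median of 0.15. Arf1, a small GTPase bound by NCS-1, had 863, 949 and 827 CPM after fear conditioning against 643 and 483 CPM in controls (log2 fold change 0.65, standard error 0.23), and Itpr1, the inositol trisphosphate receptor, overlapped between the groups, with 332, 548 and 536 CPM against 271 and 448 CPM. Kcnq3, a subunit of the M-type potassium channel, had 6.68, 8.08 and 8.24 CPM against 1.80 and 0 CPM. Chrna4, a nicotinic receptor subunit, had 13.1, 20.8 and 20.2 CPM against 5.78 and 3.85 CPM (1.70, standard error 0.51).

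**Figure D4:**
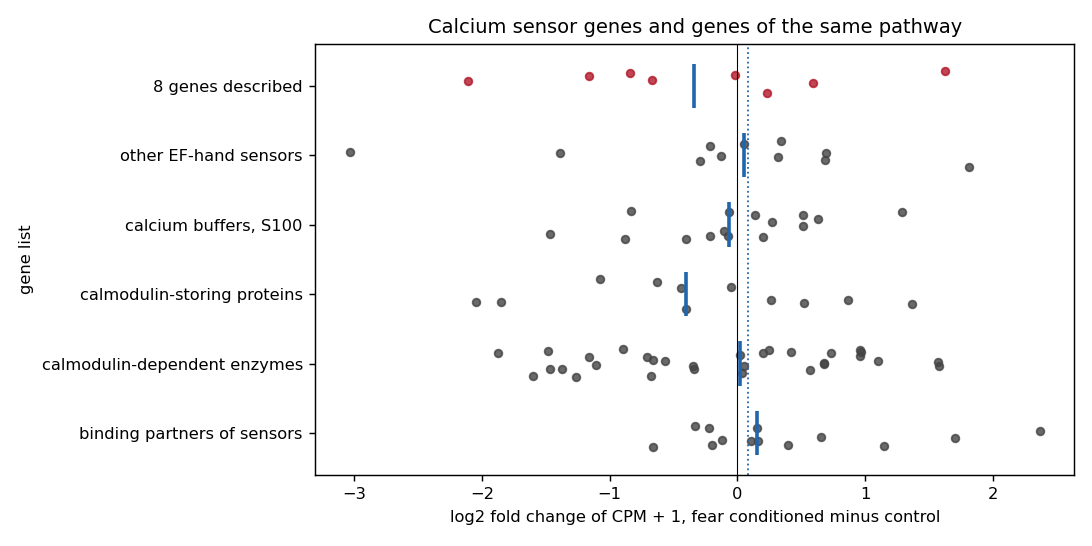
Log2 fold change of CPM + 1 (fear conditioned minus control) of the 8 genes (red) and of the tested genes of the 5 pathway lists (grey), 1 point per gene, scattered vertically only to separate them. Blue bars mark each list's median, from -0.40 to 0.15 in the pathway lists and -0.34 for the 8 genes, and the dotted line the median of 0.08 over all genes tested.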

How the data were processed

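TRAP libraries were sequenced by the authors as paired reads and processed with what the methods name as Tuxedo DESeq software. The labels also name mm8 and DESeq, without a role, and the aligner, annotation, strand setting and treatment of reads that match several genes are not given in the sources used here. The authors deposited 1 signal value per gene and library for 15093 genes that each exceed 1 in some library, together with a gene length. From the values themselves, the unit was inferred to be a read count scaled to 1000000 of an effective library size (CPM, sums of 932938 to 1042030). The recovered reads rest on this inference. Of these values, 100.0% were whole multiples (within 0.01) of their library's smallest value above 0, which was taken as the worth of 1 read to recover the reads.

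The groups were compared by limma 3.58.1 (two-sided moderated fit with a mean-variance trend) on log2(CPM + 1), for genes whose mean reached 1, with p values adjusted after Benjamini-Hochberg and the study's cutoffs (adjusted p under 0.05, absolute log2 fold change over 0.5). Alternatives were a pseudocount of 0.1, other filters on low values, quantile normalization, no fold cutoff, each library left out in turn, and edgeR 4.0.16 (quasi-likelihood, TMM) or DESeq2 1.42.0 on recovered reads of genes with at least 10 reads in total. The code of the fits was checked on simulated counts with large changes and the same spread in both groups. That check does not show how the fits perform on data like these. The 8 genes, the pathway lists and the marker lists were chosen with earlier results of these data known. Genes named beyond the 8 are, in each pathway list, the 2 of highest mean and the 2 with the largest absolute log2 fold change, together with the 5 most like Hpca and Drd2. The markers named for a value of 0 were chosen after their values were seen. Listed genes were matched by name, identifier or synonym, and 8 of those in the pathway lists were not matched. A pair of listed genes, and the results that need them, are not reported here. Upstream windows came from RefSeq (GRCm38.p6), with the 50 bases after the start left out. The labels name mm8, so no gene coordinates were taken for the measured values. R 4.3.3, Python 3.11.15, pandas 2.3.3, numpy 2.4.6 and matplotlib 3.10.9 were used.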

Additional observations from a re-analysis of the deposited data

How the results depend on the processing

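The number of genes past both cutoffs was 0 in limma (2280 at an unadjusted p under 0.05) and 0 in edgeR's quasi-likelihood test, and 1128 with DESeq2 on recovered reads. With 1 library left out it ranged from 0 to 8025, the highest without control replicate 6, with 3722 without control replicate 7 and 1 without fear conditioned replicate 3. In these fits the lone control library is assumed to vary like the fear conditioned ones. The median log2 fold change of the 8 genes ranged from -0.64 to -0.22 with 1 library left out, the lowest without control replicate 7. In 2 checks chosen after seeing the data, the count of the 8 at an unadjusted p under 0.05 ranged from 3 to 6 with 1 library left out, beside 6.51% to 65.4% of all genes, and that of genes without overlap from 5 to 7, beside 40.0% to 87.7% of all genes. Both counts were highest without control replicate 7 (41.8% and 78.3% of all genes). Leaving a library out cannot make separate groups overlap, so the count of genes without overlap could not fall. Over 11 alternatives each, Hpca, Hpcal1, Vsnl1, Ncald and Calm2 kept the sign of their log2 fold change in 11, Hpcal4 and Calm3 in 10, and Ncs1 in 8. The first of these genes, from Hpca to Calm2, had groups that did not overlap. Their sign was therefore fixed in advance for the other pseudocount, the other filters and each library left out. Only quantile normalization, edgeR and DESeq2 could have changed it. Hpca (1.21) and Calm2 (0.04) moved by more than the replicate spread only with quantile normalization, and Hpcal4, Vsnl1 and Calm3 only when a control library was left out. The median over all genes moved from 0.08 to 0.16 with a pseudocount of 0.1 and to -0.11 with DESeq2. No paired analysis was possible because the groups share no replicate number. The number of reads did not limit these genes, since each held at least 912 reads in every library. The libraries differed, however, in how many of the 15093 listed genes were at 0. There were 349, 263 and 159 such genes in fear conditioned replicates 2, 3 and 4, against 976 and 2681 in control replicates 6 and 7. Control replicate 6 nevertheless had the most reads. The part of this gap in the differences between groups was not tested.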
